A study of Mus musculus with 4 samples.

Results

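The genes described here bring glucose into the lens and carry lactate out, run glycolysis, steer pyruvate, or sense oxygen and respond to its lack. They were chosen by symbol, from a list of 37 that was drawn up with earlier results of these data known. Of the 37 genes, 35 had a row among the 10790 genes of the deposited table, and all 35 were among the 10696 genes that passed the filter on low values. Slc2a3 and Ankrd37 had no row and were not analysed here. The samples are whole lenses from mice at postnatal day 4, either Tdrd7 -/- (called null here) or wild type control. Tdrd7 encodes an RNA granule protein with Tudor domains, and its loss causes cataract. Each of the 2 libraries per genotype came from a pool of 15 lenses, so the spread between libraries is one between pools. The limma p-values took most of their spread from genes of like level and less from a gene's own pools. Neither the strain nor the position of the targeted change is stated in the sources used here.

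The lens has no vessels inside it and sits in fluid poor in oxygen, although in newborn mice a transient vessel net still covers its surface. Its fiber cells lose mitochondria and other organelles as they mature, so glycolysis ending in lactate supplies much of the energy of the tissue. When oxygen is scarce, the Egln enzymes no longer hydroxylate the transcription factor subunit Hif1a, and Vhl no longer marks it for breakdown. Hif1a then pairs with Arnt and binds a short core, ACGTG or GCGTG, at target genes that include many glycolytic enzymes, Slc2a1, Pdk1, Vegfa and P4ha1.

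Values are given as scaled reads, that is, reads per gene over a factor for each library, not divided by gene length. Between 33920522 and 42767535 reads fell in the listed genes of a library. Pools are named by genotype and replicate, and paired values stand in the order of replicates 1 and 2. Tdrd7 itself had 1188 and 972 scaled reads in the control pools against 165 and 96.6 in the null pools, lower in both null pools. Markers of cell types were called by limma at an adjusted p under 0.05, at which 7.88% of all tested genes fell. All 12 lens markers were in the table, and 2 of them fell, while none of the 7 red blood cell, 6 macrophage, 6 retina and 4 cornea markers had a row. The 8 endothelial markers with a row summed to 27.5 and 19.2 scaled reads in the control pools against 22.5 and 28.4 in the null pools. By limma 0 of these 8 were called, and 0 had an unadjusted p under 0.05. The 4 pericyte markers with a row summed to 67.7 and 67.9 against 64.1 and 56.4, and 2 of them fell. Of 6 markers of the ciliary body and iris 2 had a row, which summed to 42.5 and 42.3 against 39.1 and 35.0, and 1 of them fell. The part of these cells in the results below was not tested.

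Among the 35 genes, 4 rose and 2 fell in null lenses. P4ha1, Pdk1, Vegfa and Ldha rose, while Slc2a1 and Pdk2 fell (limma, adjusted p under 0.05). All 6 changes were small, between 1.13-fold and 1.31-fold. The called share of 17.1% stood beside 18.0% of all tested genes. By direction, 11.4% of the 35 were called higher and 5.71% lower, against 10.1% and 7.88% of all genes, so these shares lay near the background. The genotypes did not overlap for 12 genes that were higher and 7 that were lower, 54.3% of the 35, against 61.5% of all genes (30.2% higher, 31.3% lower). The median log2 fold change was 0.03, and -0.01 over all tested genes. In bulk RNA, fewer cells of a type and less RNA per cell cannot be told apart.

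A trend with base composition runs through the whole table and touches these genes. Transcripts with under 45% GC (2764 genes) had a median log2 fold change of 0.15, and those with 55% or more (2351 genes) had one of -0.16. A second fit therefore removed the trend on GC content and length from each library, which compares a gene with others of like composition. In this fit 6 of the 35 genes rose and 0 fell by limma, with 3 of those below 0 at an unadjusted p under 0.05. The called share of 17.1% stood beside 3.38% of all genes (2.08% higher, 1.30% lower). Since the 35 genes were chosen with earlier results of these data known, counts over them are not independent support. P4ha1, Pdk1 and Vegfa were called in both fits. Ldha, Slc2a1 and Pdk2 were called only with the trend left in, and Aldoa, Egln1 and Pfkl only with it removed. After removal 23 of the 35 genes stood above 0, beside 5454 of all 10656 genes in that fit. The median was 0.06 for the 35 genes, against 0.00 over all genes.

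**Figure D1:**
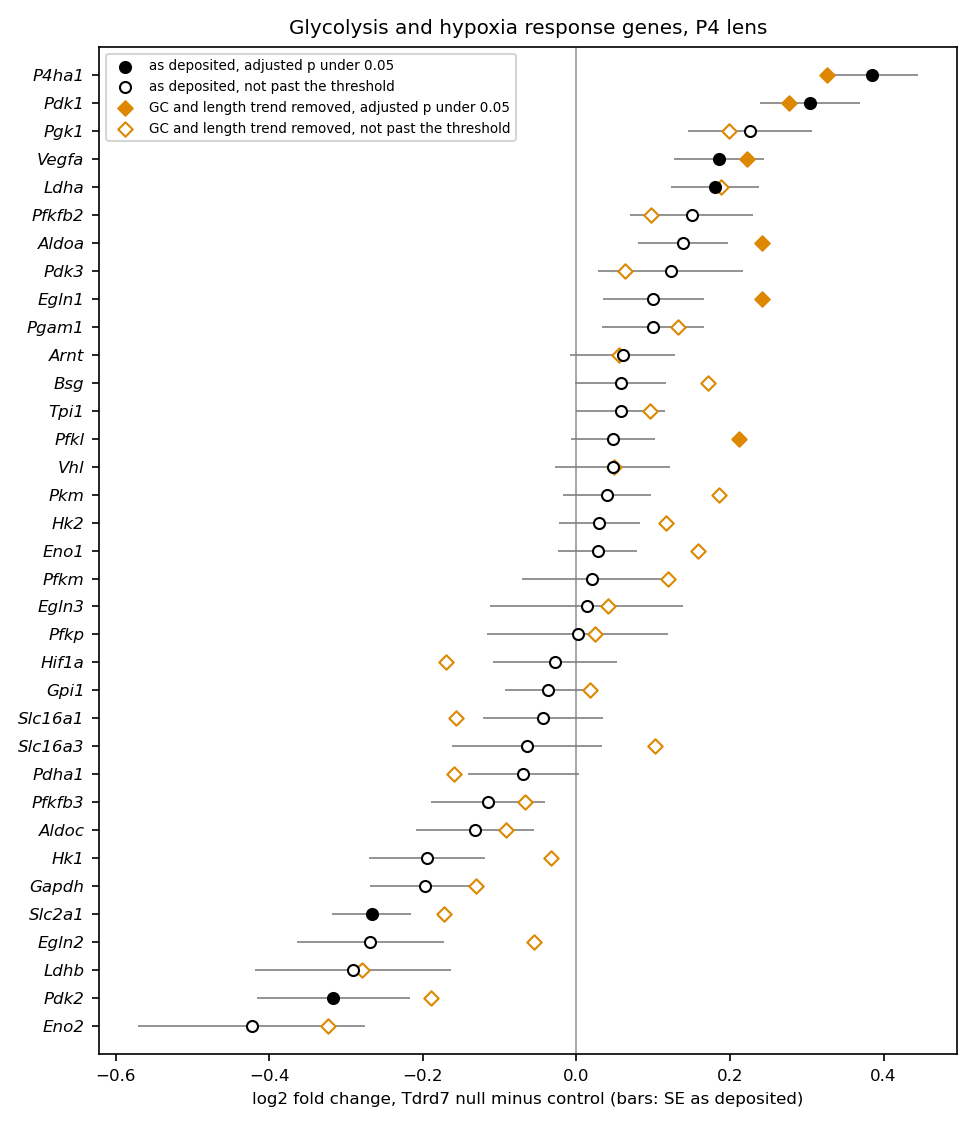
Log2 fold change of each of the 35 genes, null minus control, with its SE, as deposited (circles) and with the trend on GC content and length removed (diamonds); filled symbols passed an adjusted p under 0.05. P4ha1, Pdk1 and Vegfa are filled in both fits, and no filled diamond lies below 0.

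**Figure D2:**
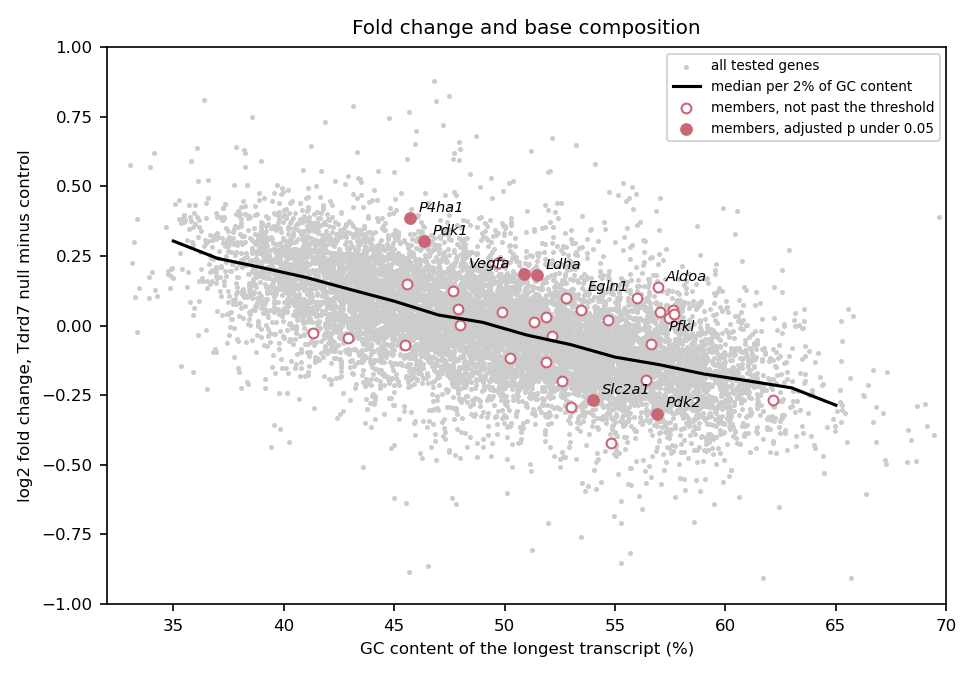
Log2 fold change, null minus control, against GC content of the longest transcript for tested genes (grey), their median per 2% of GC content (line) and the 35 genes (red, filled where called); 9 of 10656 genes lie outside the axes. The line falls from left to right, and Slc2a1 and Pdk2 lie below it while the 7 genes called higher in either fit lie above it.

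The proximal promoters are shown because many of these genes are known targets of Hif1a. Windows ran from 250 bases before the annotated start to 50 bases after it (RefSeq, GRCm38.p6), and 34 of the 35 genes had at least 1. The cores ACGTG and GCGTG were searched on both strands, and matches that overlap, as they do in a palindrome, counted as 1 place. Of 52 windows of these genes 41 held a place (78.8%), against 63.7% of the 10460 windows of tested genes and 43.8% of all 32851 windows. The 52 windows belong to 34 genes and the 10460 to 8113 genes. Windows of a gene can overlap and count the same place again, as at Aldoa. Many of the 35 genes were listed as known targets, so these shares are not a test. A match is a description of the letters and does not show binding. Printed below are the 200 bases before the start, 5′ to 3′ on the strand of the gene, with matched places in capitals. P4ha1, Pdk1 and Ldha rose and Slc2a1 fell, so places occurred before genes called in either direction.
P4ha1, chr10:59323096-59323295, plus strand: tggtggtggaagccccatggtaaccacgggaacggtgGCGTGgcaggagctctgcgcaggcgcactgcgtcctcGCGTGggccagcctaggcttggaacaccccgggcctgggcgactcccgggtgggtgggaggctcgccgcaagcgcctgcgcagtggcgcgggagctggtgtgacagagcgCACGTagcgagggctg
Pdk1, chr2:71873024-71873223, plus strand: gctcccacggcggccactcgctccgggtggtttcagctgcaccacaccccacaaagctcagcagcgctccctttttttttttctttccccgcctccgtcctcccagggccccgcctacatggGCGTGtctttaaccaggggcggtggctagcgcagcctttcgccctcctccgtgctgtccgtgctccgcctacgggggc
Ldha, chr7:46845604-46845803, plus strand: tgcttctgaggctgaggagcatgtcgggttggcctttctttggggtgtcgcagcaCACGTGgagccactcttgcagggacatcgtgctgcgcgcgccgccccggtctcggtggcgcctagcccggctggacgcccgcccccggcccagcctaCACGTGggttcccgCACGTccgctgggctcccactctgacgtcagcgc
Slc2a1, chr4:119108545-119108744, plus strand: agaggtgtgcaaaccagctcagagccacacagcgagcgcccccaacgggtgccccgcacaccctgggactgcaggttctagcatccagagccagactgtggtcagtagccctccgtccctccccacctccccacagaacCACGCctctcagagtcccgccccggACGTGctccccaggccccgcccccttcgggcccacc
Counted from the start over the whole first window, the places of P4ha1 begin at -163, -126 and -16. Pdk1 had 2, at -78 and at -2, and the latter spans the start and is not in capitals. Ldha had 5, of which those at -145, -48 and -34 are shown and those at 25 and 37 lie past the start. Slc2a1 had 2, at -61 and -36. Pdk2, which fell, had 1 place in its first window, at -126. Vegfa, which rose, had 0 places in its first window and 2 in its second.

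Glucose transport held 1 gene that fell, and lactate transport held none that passed. Slc2a1 (chromosome 4, 119108711 to 119137330 in GRCm38) encodes the glucose transporter GLUT1 of the lens epithelium. It had 192 and 194 scaled reads in the control pools and 164 and 157 in the null pools. Both null pools lay below both control pools. The change was -0.27 on the log2 scale (SE 0.0515, limma adjusted p = 0.0053), 1.2-fold. With the GC trend removed it was -0.17 and just missed the threshold (limma adjusted p = 0.053). The call was also lost without control 2 (-0.26, limma adjusted p = 0.054). Slc2a1 shares 105 nt of exon with an antisense gene, and the unstranded reads cannot separate them.

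Bsg, the partner that brings lactate transporters to the membrane, had the highest level per kb of the transport genes. It had 170 and 191 scaled reads in the control pools and 190 and 185 in the null pools, and the genotypes overlapped (log2 fold change 0.06). The lactate transporters Slc16a1 (-0.04) and Slc16a3 (-0.06) did not pass, at 11.5 to 15.9 scaled reads over the 4 pools.

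Of the 15 enzymes from hexokinase to pyruvate kinase, 0 were called by limma with the GC trend left in. An unadjusted limma p under 0.05 was found for 5 of the 15, beside 3538 of all 10696 tested genes. With the trend removed 2 rose, Aldoa and Pfkl. Pkm, a pyruvate kinase that carries out the last step of glycolysis, had the highest level per kb of all 35 genes and ranked 72 among tested genes. Its values were 735 and 783 scaled reads in the control pools and 782 and 778 in the null pools. The genotypes overlapped, and the log2 fold change was 0.04. Over these enzymes and both lactate dehydrogenases, 17 genes in all, the summed level was 1936 and 2075 in the control pools and 2069 and 2004 in the null pools. The null mean was 1.54% higher, less than the control pools differed from each other, and the sign turned to -1.27% with libraries scaled on genes other than crystallins.

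Aldoa (chromosome 7, 126795234 to 126800751), the muscle-type aldolase, had 155 and 173 scaled reads in the control pools and 179.9 and 179.8 in the null pools. Both null pools were higher than both control pools, at 0.14 (limma adjusted p = 0.12), which became 0.24 once the GC trend was removed (limma adjusted p = 0.019). As deposited, Aldoa stood at 0.06 without control 1 and at 0.22 without control 2, and was called in neither. Pfkl (chromosome 10, 77986947 to 78010083), the liver-type subunit of phosphofructokinase, had 78.1 and 82.8 against 82.9 and 83.3. These levels were almost equal, at a log2 fold change of 0.05, or 0.0059 without control 1. Its 0.21 with the trend removed (limma adjusted p = 0.035) is a difference from genes of like composition, since the transcripts of Pfkl and Aldoa hold 57.1% and 56.9% GC.

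The other 13 enzymes passed in neither fit. Pgk1, phosphoglycerate kinase, had 23.9 and 25.5 scaled reads in the control pools and 31.8 and 26.5 in the null pools (0.23, limma adjusted p = 0.07). Gapdh, the step that yields NADH, had 53.9 and 60.9 against 52.8 and 47.1 (-0.20, limma adjusted p = 0.073). The genotypes were apart for both, in opposite directions, and the Pgk1 difference lay mainly in null 1. Eno2, the neuronal enolase, stood farthest from 0 of all 35 genes at -0.42 (SE 0.148, limma adjusted p = 0.064), with 5.31 and 4.23 against 2.63 and 4.05. Without null 1 it was -0.18. Hk1, a hexokinase, stood at -0.19 (limma adjusted p = 0.092). Aldoc (-0.13), Gpi1 (-0.04), Pfkp (0.00), Pfkm (0.02), Eno1 (0.03), Hk2 (0.03), Pkm, Tpi1 (0.06) and Pgam1 (0.10) make up the rest.

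Several of these values are uncertain because similar sequence lies elsewhere. Stretches of at least 500 nt at 90% identity or more were found at other annotated genes for 11 of the 35, with 163 such genes for Gapdh, 10 for Ldha, 6 each for Pkm and Eno1 and 5 for Aldoa. The other 6 are Pgam1, Pgk1, Gpi1, Ldhb, Pdha1 and Tpi1. How reads that fit several places were counted is not stated in the sources used here. At least 100 nt of exon is shared with another gene for 9 genes, which are Hif1a, Gpi1, Hk1, Pdha1, Pfkfb2, Pfkm, Pfkp, Pkm and Slc2a1.

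Pfkfb2 and Pfkfb3 make and remove the sugar phosphate that activates phosphofructokinase, and neither passed. Pfkfb3, the higher of the pair per kb, had 37.6 and 31.9 scaled reads in the control pools and 31.5 and 32.3 in the null pools (-0.11). Pfkfb2 stood at 0.15.

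Of the 6 genes that steer pyruvate 2 rose and 1 fell, where 10.1% and 7.88% of all genes did, and with the GC trend removed only Pdk1 was called. Pdk1 and Pdk2 encode kinases that switch off pyruvate dehydrogenase, the way of pyruvate into mitochondrial oxidation. Pdk1 (chromosome 2, 71873224 to 71903858) had 20.6 and 21.3 scaled reads in the control pools and 25.5 and 26.8 in the null pools. Both null pools were higher, 1.23-fold on average (log2 fold change 0.30, SE 0.0653, limma adjusted p = 0.0088), which became 0.28 with the GC trend removed (limma adjusted p = 0.030). Leaving out control 1 or control 2 ended the call at about the same size (0.28 and 0.33, limma adjusted p = 0.077 and 0.051).

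Pdk2 (chromosome 11, 95026258 to 95041354) went the other way, with 19.5 and 22.8 scaled reads in the control pools and 18.7 and 14.9 in the null pools. The gap between control 1 and null 1 was narrow. Pdk2 fell by 0.32 on the log2 scale (SE 0.0996, limma adjusted p = 0.044), and the call was lost with the GC trend removed (-0.19, limma adjusted p = 0.27). It was also lost without control 1 (-0.43), without control 2 (-0.21) and without null 2 (-0.16).

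Ldha (chromosome 7, 46841475 to 46855627) encodes the lactate dehydrogenase subunit that favours lactate. It had 102 and 111 scaled reads in the control pools and 118 and 123 in the null pools. The null pools were higher, 1.13-fold (log2 fold change 0.18, SE 0.0573, limma adjusted p = 0.045). With the GC trend removed the size was kept at 0.19, but not the call (limma adjusted p = 0.060). The call also ended without control 1 (0.12), control 2 (0.24) or null 2 (0.15). Ldhb, the heart-type subunit, was low at 1.78 and 2.01 against 1.41 and 1.32 (-0.29, limma adjusted p = 0.13). Pdk3 (0.12) and Pdha1 (-0.07), a subunit of pyruvate dehydrogenase, did not pass.

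**Figure D3:**
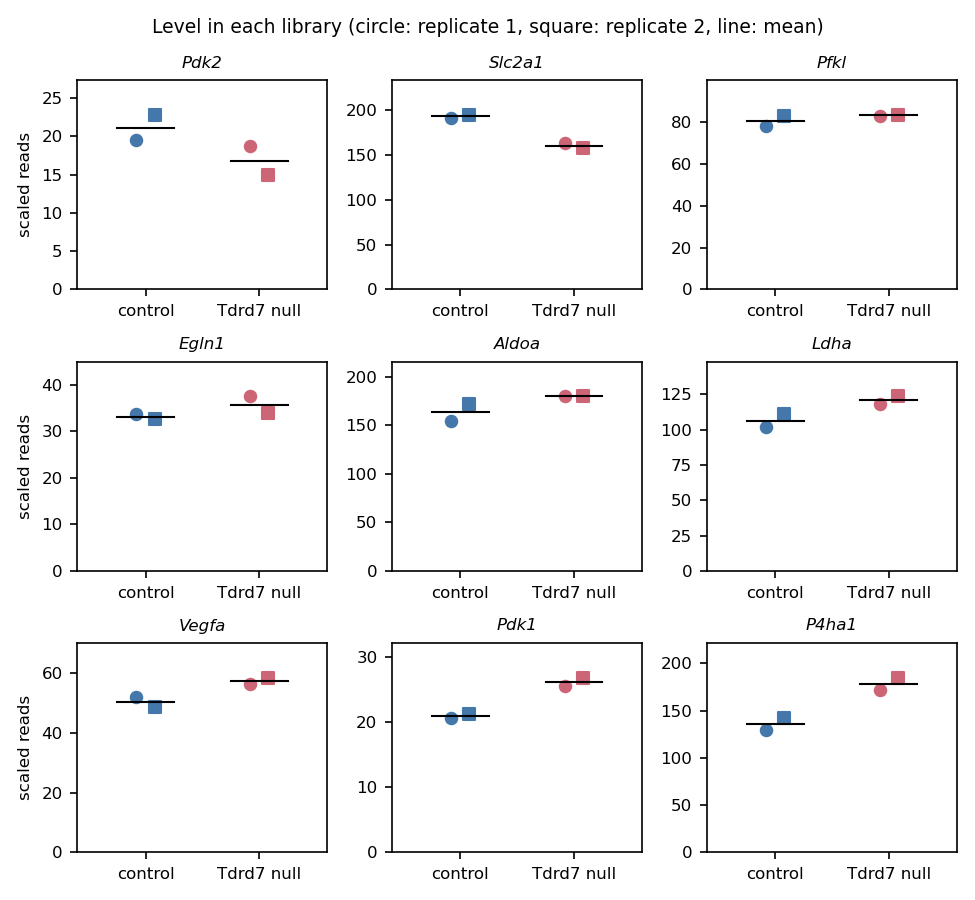
Scaled reads in each library (y axis from 0) of the 9 genes called with the GC and length trend left in or removed; blue is control, red is null, circles are replicate 1, squares are replicate 2 and lines are means. The genotypes do not overlap in any panel, and they all but touch for Pfkl and Egln1.

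Of the 6 genes that sense oxygen, 0 were called by limma with the GC trend left in. In this fit 1 of them (Egln2) had an unadjusted p under 0.05, as 3538 of all 10696 tested genes did. Hif1a, the regulated subunit, had 117 and 125 scaled reads in the control pools and 132 and 107 in the null pools. The null pools lay on either side of the control pools (log2 fold change -0.03, SE 0.0806, limma adjusted p = 0.84). Its partner Arnt stood at 0.06 and Vhl at 0.05.

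Egln1 (chromosome 8, 124908596 to 124949254), the main hydroxylase of Hif1a, was called only with the GC trend removed. It had 33.7 and 32.6 scaled reads in the control pools and 37.5 and 33.8 in the null pools. Control 1 and null 2 were nearly level, and the log2 fold change went from 0.10 to 0.24 on removal (limma adjusted p = 0.31 and 0.040), the transcript having 56.0% GC. As deposited, Egln1 stood at 0.028 without null 1 and at 0.17 without null 2. Egln2, whose transcript is the most GC-rich of the 35 at 62.2%, stood at -0.27 (limma adjusted p = 0.068) and at -0.05 on removal. Egln3 stood at 0.01, with 2.08 to 2.61 scaled reads.

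Both remaining targets of Hif1a rose. P4ha1 (chromosome 10, 59323296 to 59373304) encodes a catalytic subunit of the prolyl hydroxylase that stabilises collagen, a main component of the lens capsule. It had 130 and 143 scaled reads in the control pools and 171 and 185 in the null pools. The genotypes were farther apart than the replicates, at 1.31-fold (log2 fold change 0.38, SE 0.0605, limma adjusted p = 0.0022). With the GC trend removed P4ha1 stood at 0.33 (limma adjusted p = 0.0093). It was called whichever library was left out, and in 16 of 17 alternatives.

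Vegfa (chromosome 17, 46016993 to 46032377), the vascular growth factor, had 52.0 and 48.8 scaled reads in the control pools and 56.4 and 58.5 in the null pools. The null pools were higher, 1.14-fold (log2 fold change 0.19, SE 0.0581, limma adjusted p = 0.043), which became 0.22 with the GC trend removed (limma adjusted p = 0.041). Without control 1 (0.23), control 2 (0.14) or null 2 (0.16) the call was lost.

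Other genes of these pathways came from lists drawn up with earlier results of these data known, Bnip3 and Bnip3l among them, so their counts are not independent support. Among 27 further targets of Hif1a 7 rose and 0 fell, 25.9% against 10.1% of all genes called higher, with a median of 0.07. With the GC trend left in 16 of the 27 stood above 0, beside 5230 of all 10696 tested genes. With the trend removed 3 of the 27 rose, where 2.08% of all genes did. In that fit 20 of the 27 stood above 0, beside 5454 of all 10656 genes. Bnip3, a receptor for the removal of mitochondria, had 24 and 25.4 scaled reads in the control pools and 34.6 and 34.2 in the null pools (0.46, limma adjusted p = 0.0011), and stood at 0.26 on removal. Tfrc, the transferrin receptor, had 28.9 and 28.3 against 40.4 and 38.0 (0.44, and 0.27 on removal). Narf (0.22, and 0.24 on removal) was the other gene called in both fits. Bnip3l, a relative of Bnip3, rose (0.33) and lost its call on removal (0.17, limma adjusted p = 0.059), as did Fam162a, Plod2 and Ero1l. Hmox1, the highest of the 27 per kb, pointed the other way and was not called. It had 563 and 680 scaled reads in the control pools and 581 and 471 in the null pools (-0.24, limma adjusted p = 0.096), and the genotypes overlapped.

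Of 13 further genes that control Hif1a, 0 were called by limma. Before removal 4 of the 13 had an unadjusted limma p under 0.05, beside 3538 of all 10696 tested genes. On removal 0 of the 13 were called, with 1 at an unadjusted p under 0.05. Those with the smallest p were the ubiquitin ligase Siah2 (-0.36), Arnt2 (-0.22), P4htm (-0.26) and Rbx1 (0.17).

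Of 22 genes on side routes of glucose 2 were called higher and 2 lower, a share of 18.2% that is near the 18.0% of all genes. Pygm, the muscle glycogen phosphorylase that frees glucose units from glycogen, had 146 and 142 scaled reads in the control pools and 111 and 106 in the null pools. It fell in both fits (-0.41, limma adjusted p = 0.00095, and -0.30, limma adjusted p = 0.0047). Ugp2 (0.33), which makes UDP-glucose, and Rpe (0.31) and Pgls (-0.22) of the pentose phosphate pathway were called only with the trend left in.

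Of 8 further glycolytic genes 1 fell (12.5%, against 18.0% of all genes called). This was Pgam5 (-0.31), a mitochondrial phosphatase, which was not called on removal (-0.33). Bpgm (0.14), Minpp1 (0.13) and Pgam2 (-0.10) did not pass. Pgam2, the muscle-type phosphoglycerate mutase, was far above Pgam1 in these lenses, at 523 against 12.7 scaled reads per kb over the 4 pools.

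Of 11 further genes of pyruvate use 2 rose, Dld (0.34) and Pdhb (0.20), both subunits of pyruvate dehydrogenase, a share of 18.2% against 18.0% of all genes. Both lost their calls on removal (0.14 and 0.12). Dlat (0.18) and Pdpr (-0.16) did not pass. Of 6 further transporters Emb (0.20), a relative of Bsg, rose and Slc2a8 (-0.36), a glucose transporter inside cells, fell. These 2 make a share of 33.3%, against 18.0% of all genes, and neither was called on removal (0.09 and -0.15). Slc2a13 (0.14) and Slc2a12 (-0.11) did not pass. Of the genes named from these lists, Bnip3, Fam162a, Plod2, Arnt2, Rpe, Pgls, Pgam5, Minpp1, Pdpr, Emb and Slc2a12 share at least 100 nt of exon with another gene.

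Isozyme use was compared as the share of each gene in the scaled reads per kb of its family, for 21 shares in 9 families. Of these shares 15 did not overlap between the genotypes, in 7 of the families, and those of phosphofructokinase and the lactate transporters overlapped. The levels of 61.5% of all tested genes did not overlap either. Shares of a family add up to the whole, so in a family of 2 genes both are apart together, and the 15 are not separate events. With 2 pools against 2 an exact permutation test cannot go below p = 0.333 (two-sided), so no share could pass. In 4 families, those of Hk2, Pfkl, Eno1 and Ldha, the named gene held the larger share by far, and the aldolases and lactate transporters were split nearly evenly. Ldha took 97.6% and 97.5% of its family in the control pools and 98.4% and 98.5% in the null pools.

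The widest shift was among the kinases of pyruvate dehydrogenase. Pdk2 took 55.8% and 58.6% in the control pools and 51.0% and 43.4% in the null pools. Pdk1 took 25.6% and 23.7% against 30.1% and 33.8%. The exact permutation p was 0.333 for each (adjusted p = 0.467 over the 21 shares). The transcripts of Pdk1 and Pdk3 are GC-poor (46.4% and 47.7%) and that of Pdk2 is GC-rich (56.9%), so this shift and the trend with composition have the same direction. The aldolases had the opposite one. Aldoa, at 56.9% GC, went from 49.5% and 49.1% of its family to 52.0% and 56.0%, and Aldoc, at 51.9% GC, took the rest. Hk2 went from 79.4% and 80.6% to 82.6% and 82.4%, and Egln1 from 57.6% and 52.2% to 61% and 60.8%. These shifts have the same direction as the trend. Hk2 holds 51.9% GC against 56.4% for Hk1, and Egln1 holds 56.0% against 62.2% for Egln2.

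**Figure D4:**
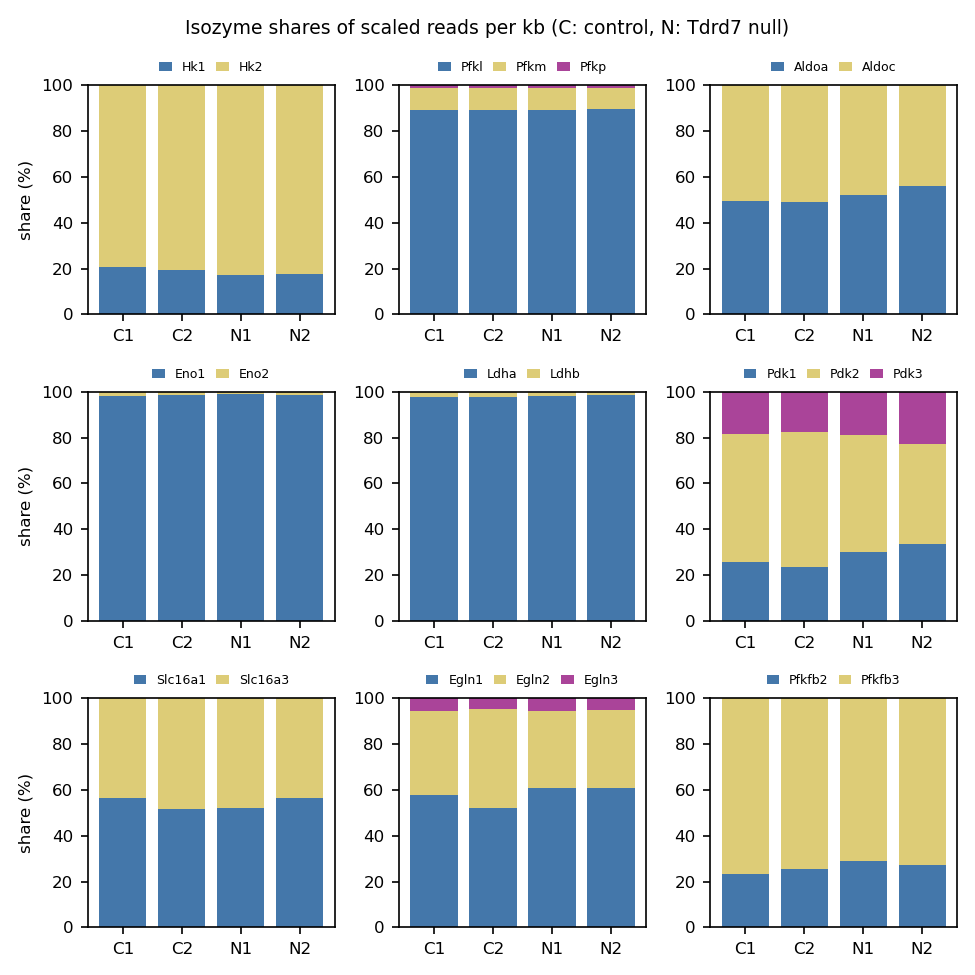
Share of each isozyme (y axis, percent) in the scaled reads per kb of its family, in control replicates 1 and 2 (C1, C2) and null replicates 1 and 2 (N1, N2). On average the Pdk2 segment goes from 57.2% to 47.2% and the Aldoa segment from 49.3% to 54.0%.

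The calls rested on how the spread was estimated and on scaling. Without the intensity trend in limma's prior, 0 of the 35 genes were called (9 at an unadjusted p under 0.05), where 0.150% of all genes were (0.0841% higher, 0.0654% lower), and P4ha1 then had an adjusted p of 0.058. With libraries scaled on genes other than crystallins, P4ha1 and Pdk1 rose and Slc2a1, Pdk2, Egln2, Eno2, Gapdh and Hk1 fell, and 768 of all genes rose and 1262 fell.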

How the data were processed

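Poly(A) RNA libraries made with an unstranded TruSeq kit were sequenced as pairs of 75 nt reads, per the labels and the design text. The submitters' processing notes name Trimmomatic, TopHat2 2.0.9, Cufflinks and Cuffnorm with mm10 (GRCm38). No source used here names the read counter. The deposited values are of the unit signal: in each library 100% of them lay within 0.01 of a whole multiple of 1 step, as read counts over a library factor would. The table lists no gene that stays near 0 in every library.

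Values were tested as log2(scaled reads + 1), with a mean of at least 1, by limma 3.58.1 (R 4.3.3) with an intensity trend, two-sided, with Benjamini-Hochberg adjustment over all genes. This scale understates changes of low genes. The prior shared over genes had 11.1 degrees of freedom, against 2 from the pools of each gene. For the GC and length trend, natural splines (5 degrees of freedom each) were fitted on the longest GENCODE M21 transcript. The script was tested on simulated data. Permutation tests used SciPy 1.17.1 and the search for copies BLAST 2.17.0. Alternatives covered pseudocounts, filters, scalings, priors, the replicate block and leaving out each library, where a lone library is assumed to vary like the others. Planned count models were not run.

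The genes and lists were chosen with earlier results of these data known. Every measured gene of the set is named, with values per pool for those called and the highest per kb of each role. Of every other list the 4 genes with the smallest p are named. Other genes shown in more detail (Pgk1, Gapdh, Eno2, Ldhb, Fam162a, Plod2, Ero1l, Hmox1) were chosen after their values were seen.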

Additional observations from a re-analysis of the deposited data

How the results depend on the processing

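Of the 35 genes 4 were called higher and 2 lower, as with other pseudocounts, filters, trimmed-mean or median-of-ratios scaling and a robust prior, which called Egln2 in place of Pdk2. The counts were 2 and 6 with scaling without crystallins, 0 and 0 without the intensity trend, 6 and 0 with the GC trend removed, and 6 lower at an adjusted p under 0.1. Leaving out 1 library gave 1 to 4 higher and 0 to 5 lower. Of 86 other pathway genes 12 were higher and 4 lower. These became 8 lower without crystallins, 0 and 0 without the intensity trend, 3 and 1 with the GC trend removed, 10 lower at an adjusted p under 0.1, and 5 to 9 and 1 to 8 with 1 library left out. Of all genes 1077 were higher and 843 lower. These became 9 and 7 without the intensity trend, 222 and 138 with the GC trend removed, 1327 lower at an adjusted p under 0.1, and 293 to 1166 and 138 to 1030 with 1 library left out.

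The replicate numbers did not pair the pools (correlation of deviations -0.151). With them as a block 5 of the 35 were called higher and 5 lower, beside 13 and 7 other pathway genes and 1144 and 973 of all genes. The prior of that fit had infinite degrees of freedom, so a gene's own spread was not used. With the block and the GC trend removed, 8 of the 35 were higher and 1 lower, 3 and 1 of the others and 365 and 243 of all genes. A crossed pairing, added after seeing the data, called 7 of the 35 and 10 others lower, and 1628 and 1408 of all genes.

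Values that changed sign were small and not called. Without crystallins they were Egln3 (-0.015), Eno1 (-0.013), Hk2 (-0.0098), Pfkm (-0.015), Pfkp (-0.026) and Pkm (-0.00022), besides the summed level of 17 genes (-1.27% from 1.54%), and with the GC trend removed, with or without the block, Gpi1 (0.018) and Slc16a3 (0.10). With 1 library left out, log2 fold changes ran from -0.023 to 0.14 (Bsg), -0.10 to 0.13 (Egln3), -0.075 to 0.0013 (Gpi1), -0.18 to 0.13 (Hif1a), -0.028 to 0.069 (Pfkm), -0.014 to 0.018 (Pfkp), -0.0046 to 0.085 (Pkm), -0.13 to 0.038 (Slc16a1), -0.22 to 0.094 (Slc16a3), -0.0093 to 0.12 (Tpi1) and -0.0062 to 0.10 (Vhl). Differences in isozyme share ran, in percentage points, from -0.114 to 0.585 (Egln3), -0.037 to 0.383 (Pfkl), -0.368 to 0.085 (Pfkm), -0.067 to 0.0046 (Pfkp) and -2.04 to 2.82 (Slc16a1). The causes were not tested. The planned count models were not run.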
